A study of Homo sapiens with 4 samples.

Results

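A set of 8 genes of intestinal identity were followed through 4 libraries of HCT116 cells: the transcription factors CDX1, CDX2 and HNF4A, the brush border genes VIL1 and CDHR5, the surface peptidases ANPEP and DPP4, and the carbonic anhydrase CA2. They were taken by gene symbol, and all 8 of 8 symbols were found among the 20812 targets measured. HCT116 is a poorly differentiated human colon cancer line. The wild type line was set beside a line that overexpresses human IDO1 (hIDO1), an enzyme that opens the tryptophan ring. Both were treated for 24 h with 1 mM indole, a bacterial product of tryptophan, or with DMF as the control. The vector and promoter behind IDO1, and whether the line is 1 clone, were not stated in the labels. The design text states 2 replicates each, but each group had 1 library with 1 column of counts, so the 4 groups have no replicates of their own.

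The caudal-type homeobox factors CDX1 and CDX2 specify intestinal against other gut epithelium, and CDX2 is a routine marker of colorectal tumours. HNF4A is a nuclear receptor that acts with them on enterocyte genes. Enterocytes carry an apical brush border of microvilli, bundled by villin (VIL1) and linked tip to tip by protocadherins such as CDHR5, and they display peptidases on it. Carbonic anhydrase II, the product of CA2, interconverts carbon dioxide and bicarbonate in the cytosol of colonocytes and of many other cells.

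The stretches of 250 bases upstream of the annotated starts of CDX2 and HNF4A are printed because these are the lineage factors that were detected. HNF4A has a pair of starts, and which of their transcripts its single amplicon reads is not known here. Sequences are from RefSeq on GRCh38.p14, each on its gene's strand. Capitals mark a match to the CDX motif letters. The CDX2 stretch is chr13:27969316-27969565 (minus strand), and the HNF4A stretches are chr20:44355449-44355698 and chr20:44400989-44401238 (plus strand).
CDX2: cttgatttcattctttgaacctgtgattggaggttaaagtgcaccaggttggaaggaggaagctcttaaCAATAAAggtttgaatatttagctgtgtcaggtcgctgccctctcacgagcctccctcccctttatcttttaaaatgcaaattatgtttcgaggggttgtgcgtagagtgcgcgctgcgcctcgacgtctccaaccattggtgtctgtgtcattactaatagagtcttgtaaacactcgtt
HNF4A upstream start: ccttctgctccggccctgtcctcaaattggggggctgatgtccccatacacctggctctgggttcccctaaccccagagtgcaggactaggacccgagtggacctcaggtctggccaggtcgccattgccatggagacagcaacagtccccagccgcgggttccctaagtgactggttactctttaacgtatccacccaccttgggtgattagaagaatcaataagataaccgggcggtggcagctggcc
HNF4A downstream start: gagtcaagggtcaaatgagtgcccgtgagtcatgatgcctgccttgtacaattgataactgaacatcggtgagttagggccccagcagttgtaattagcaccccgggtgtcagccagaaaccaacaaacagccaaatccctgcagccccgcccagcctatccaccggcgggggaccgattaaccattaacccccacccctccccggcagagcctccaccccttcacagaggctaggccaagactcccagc
Promoters were found for 4 of the 8 genes (CDX2, HNF4A, ANPEP and DPP4). Windows of 300 bases, from 250 before to 50 after each start, were searched on both strands for TTTATG or TTTATTG (CDX), CAAAGTCCA (HNF4) and the HNF1 palindrome. These were held by 13.7%, 0.384% and 0.0057% of 35116 promoters, respectively. Among the genes described here only CDX2 had a match, 1 copy of TTTATTG on the opposite strand, whose farthest base lies 181 bases before the start. A match is a description of letters, not of binding. The CDX2 stretch was 45.2% G and C, against 58.4% and 58.0% at the HNF4A starts, 73.6% at DPP4 and a median of 58.0% over all promoters.

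Library totals ranged from 18283862 to 22736172 reads, and values are CPM, reads scaled to a common library size with TMM factors. Values of the 4 libraries are listed in a fixed order, DMF before indole and wild type before the IDO1 line. IDO1 itself, the check of the labels, numbered 0, 2, 3451 and 2440 reads in that order. Wild type with indole was the library farthest from the rest, at 32.6 on a first principal component (73% of the variance) against -3.69 to -15.3 for the others. A floor of 3 reads corresponded to 0.131 to 0.157 CPM. Intervals are 95% intervals of counting error only, because each group has 1 library. Amplified reads that carry no molecular identifier can repeat 1 molecule, so the intervals can be too narrow even for counting error. In bulk libraries, more cells with a transcript and more transcript per cell cannot be told apart. Each gene is read from 1 amplicon whose yield differs between genes, so the size of a level was compared between libraries and not between genes. Where genes are counted by whether they reach 10 CPM, or named as the most abundant of a list, that count or order also depends on amplicon yield.

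CDX1 was not detected, while CDX2 and HNF4A were present in all 4 libraries. CDX1 had 0 reads in every library, which allows up to the floor of 3 reads. CDX2 had 917, 993, 1102 and 809 reads in the fixed order, or 43.1, 51.3, 48.3 and 42.3 CPM. Its highest library was thus only 1.21 times its lowest. From low to high, the IDO1 line with indole did not differ from wild type with DMF beyond counting error, nor did the IDO1 line with DMF from wild type with indole. With indole, CDX2 was 1.19 times as high in wild type (1.09 to 1.30) and 0.875 times as high in the IDO1 line (0.798 to 0.959). Between the lines the ratio was 1.12 in DMF (1.025 to 1.22) and 0.824 in indole (0.750 to 0.905). These directions were the same with library totals, with which the log2 ratio in wild type was 0.42 in place of 0.25.

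HNF4A was likewise nearly level. It had 176, 208, 180 and 150 reads in the fixed order, or 8.28, 10.8, 7.89 and 7.84 CPM. Only wild type with indole lay above the others beyond counting error, at 1.30 times wild type with DMF (1.06 to 1.60). In that pair 41.8% of genes with at least 10 CPM differed by more on the log2 scale, so the size was not unusual there. In indole, HNF4A in the IDO1 line was 0.729 times its wild type level (0.587 to 0.904), and in DMF 0.953 times (0.770 to 1.18). The DMF ratio turns from a log2 of -0.06 to 0.03 with library totals.

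**Figure D1:**
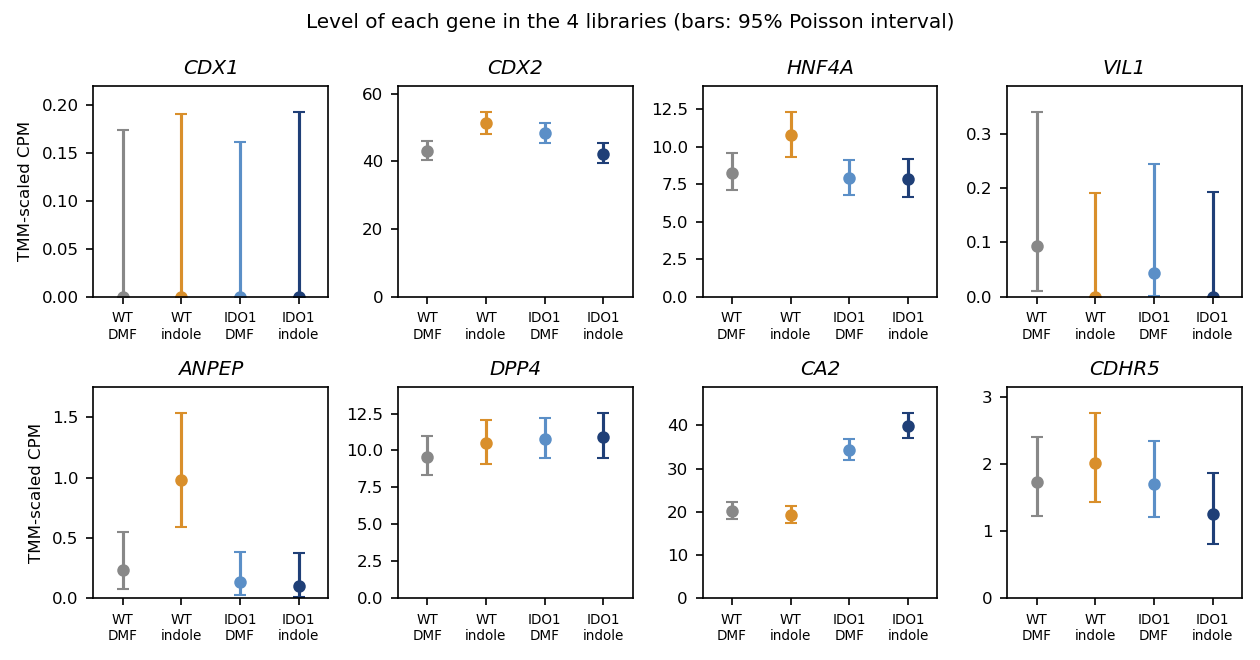
TMM-scaled CPM of the 8 genes in each of the 4 libraries (1 point per library, bars are 95% Poisson intervals, each vertical axis starts at 0 and has its own scale). CA2 is the gene whose IDO1 line libraries (34.4 and 39.8) both lie clear of the wild type libraries (20.3 and 19.2), while CDX2 stays between 42.3 and 51.3.

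Of the brush border genes, VIL1 was absent or nearly so and CDHR5 was low. VIL1 had 2, 0, 1 and 0 reads in the same order of libraries, all within the floor, so no ratio is given. CDHR5 had 37, 39, 39 and 24 reads, between 1.25 and 2.02 CPM. No pair of neighbouring CDHR5 levels differed beyond counting error, and the ratio between the lines was 0.983 in DMF (0.610 to 1.58) and 0.622 in indole (0.358 to 1.06). At this depth a difference in CDHR5 within those intervals was not detectable.

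The peptidases parted in a similar way. DPP4, which trims dipeptides from incretins and other peptides, had 204, 203, 246 and 209 reads, or 9.59, 10.5, 10.8 and 10.9 CPM. Its levels did not differ between any neighbouring libraries beyond counting error. Indole against DMF gave 1.09 in wild type (0.896 to 1.34) and 1.01 in the IDO1 line (0.838 to 1.22), and the IDO1 line against wild type gave 1.12 in DMF (0.930 to 1.36) and 1.04 in indole (0.854 to 1.27). The last of these turns from a log2 of 0.05 to -0.02 with library totals. ANPEP, the aminopeptidase N of the brush border, had 5, 19, 3 and 2 reads. Its 19 reads in wild type with indole set that library above the others, at 4.18 times wild type with DMF (1.51 to 14.3). In indole the IDO1 line was 9.39-fold lower than wild type for ANPEP (2.27 to 83.2), a ratio that rests on 2 reads. All ANPEP levels were under 1 CPM.

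CA2 was the gene of the 8 that was higher in the IDO1 line beyond counting error in both treatments. It had 431, 372, 785 and 762 reads in the fixed order, or 20.3, 19.2, 34.4 and 39.8 CPM. Both IDO1 line libraries lay above both wild type libraries, an order that DPP4 also had, though within counting error. The share of all genes with this order was not computed. CA2 was 1.70 times as high in the IDO1 line in DMF (1.51 to 1.91) and 2.07 times in indole (1.83 to 2.35). Only 0.976% of genes with at least 10 CPM differed by more in DMF, and 4.37% in indole. With indole, CA2 was 0.949 times as high in wild type (0.823 to 1.09), a log2 ratio of -0.07 that becomes 0.09 with library totals, and 1.16 times as high in the IDO1 line (1.05 to 1.28).

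A model with line and treatment as additive terms, fitted over all 4 libraries, tested for differences between lines that the 2 treatments share. It tested 5 of the 8 genes, since CDX1, VIL1 and ANPEP fell below the filter on low counts. CA2 rose in the IDO1 line by a log2 fold change of 0.90 (SE 0.229, edgeR's quasi-likelihood test, adjusted p 0.0244), being higher in both treatments, and the other 4 did not pass. Over all 13122 genes, 2.03% rose and 0.419% fell (2.45% passed in all). The log2 fold changes of the others, with SE, were -0.07 (0.222) for CDX2, -0.27 (0.276) for HNF4A, 0.11 (0.264) for DPP4 and -0.35 (0.472) for CDHR5, with edgeR adjusted p from 0.854 to 0.970. These errors leave room for changes of some size, and the tests do not show that the genes were equal. The median of the 5 was -0.07, against 0.01 over all genes tested.

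The call for CA2 depended on the fit, while its size did not. DESeq2 gave a log2 fold change of 0.90 with an adjusted p of 0.199, and edgeR without the treatment term gave 0.90 with 0.0574. With the line term alone and 1 library left out, the edgeR adjusted p was 0.00214 without wild type with indole and 0.00014 without wild type with DMF. It was 0.457 without the IDO1 line with DMF and 0.999 without the IDO1 line with indole. In each of these 4 fits 1 line has a single library, which is assumed to vary like the pair of the other line, so the spread behind the small p-values is that of the IDO1 pair and behind the large ones that of the wild type pair. The log2 fold change was between 0.80 and 1.01 in these 4 fits. Without wild type with DMF, ANPEP also passed, in a fit that called 32.1% of all genes.

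**Figure D2:**
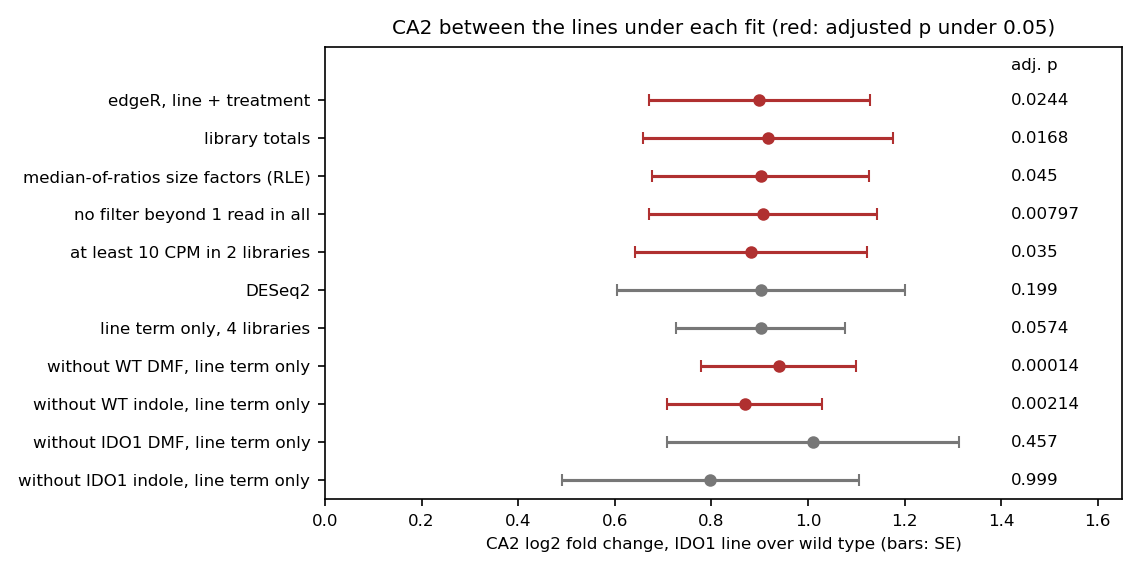
CA2 log2 fold change of the IDO1 line over wild type (horizontal axis, bars are SE) under the additive edgeR fit and 10 alternatives (rows), with the adjusted p at the right and red for those under 0.05. The estimates lie between 0.80 and 1.01, and 7 of 11 fits are past the threshold.

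Genes known from embryonic kidney cell lines moved with the line as CA2 did. On a list of 12 such genes, chosen with earlier results of these data known, 9 rose in the IDO1 line by edgeR's adjusted threshold and 0 fell. Their summed level was 35.5 and 54.3 CPM in wild type with DMF and with indole, and 157.1 and 160.6 CPM in the IDO1 line. In wild type 6 and 7 of the 12 were at 0 reads, and in the IDO1 line none was. DESeq2 called 2 of the 12 (IRS4 and VIM), and edgeR with the line term alone called 10, 10, 6 and 6 with each library left out in the fixed order. Of all genes, 0.579% rose with DESeq2, and 17.6%, 2.37%, 0.592% and 0.714% in those 4 fits. IRS4, an insulin receptor substrate, had 1, 0, 360 and 249 reads, and UCHL1, a neuronal ubiquitin hydrolase, had 0, 0, 369 and 333. GATA4, an intestinal and cardiac zinc finger factor, had 3, 0, 68 and 58 reads. CA2, unlike these 3 genes, had 372 or more reads in both wild type libraries. The part of these markers in the CA2 difference was not tested.

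**Figure D3:**
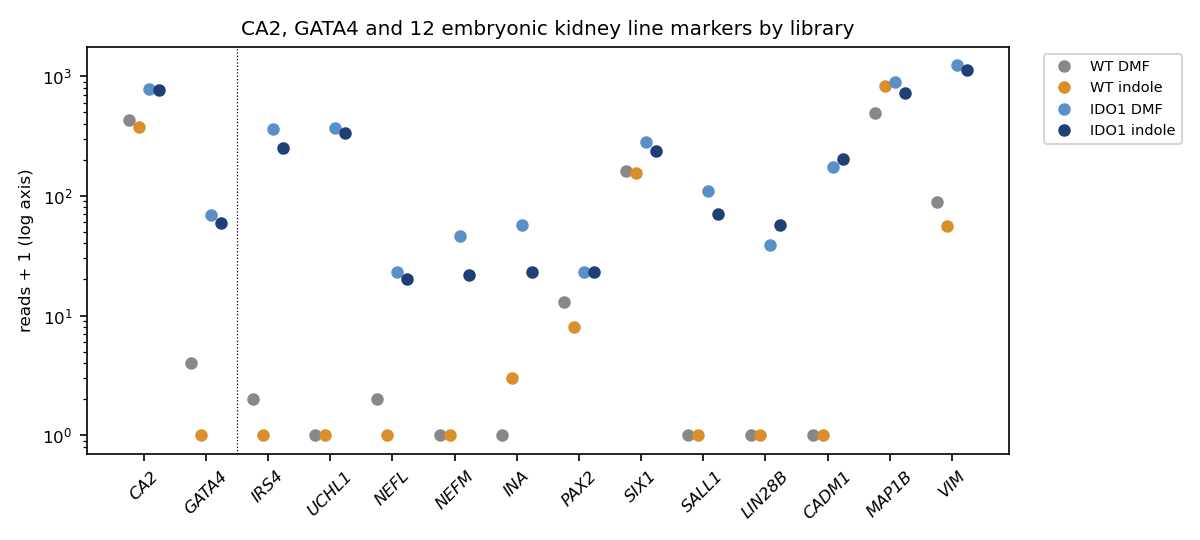
Reads plus 1 on a log axis for CA2, GATA4 and the 12 embryonic kidney line markers (horizontal axis), 1 point per library coloured by group. IRS4, UCHL1, SALL1 and CADM1 go from at most 1 read in wild type to 69 or more in the IDO1 line, whereas CA2 goes from 372 and 431 to 762 and 785.

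CA11 and CA13 were the other carbonic anhydrases at 10 CPM or more, and neither passed for the line. CA11, a catalytically inactive relative, had 1762, 1402, 1457 and 1195 reads and was 0.771 times as high in the IDO1 line in DMF (0.719 to 0.827) and 0.862 times in indole (0.797 to 0.932). CA13, a cytosolic enzyme chosen for mention after its values were seen, had 452, 567, 489 and 416 reads, with line ratios of 1.01 in DMF (0.886 to 1.15) and 0.742 in indole (0.652 to 0.844), the latter in the opposite direction to CA2. Of 15 family members, 6 were tested in the additive fit and CA2 alone passed with edgeR. DESeq2 called 0 of 6, with 1 at an unadjusted p under 0.05, and without wild type with DMF CA13 also passed, falling. Over all 13122 genes, DESeq2 gave 683 at an unadjusted p under 0.05 for the line. CA1, a paralog of CA2 in colonocytes, had 0 reads in all 4 libraries.

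The genes whose pattern over the 4 libraries was most like that of CA2 were the actin bundler PLS3, the lysosomal galactosidase GLA and SYDE1. Their Euclidean distances to CA2 were 0.18, 0.21 and 0.221, computed on log2(CPM + 1) profiles centred on each gene's mean, over 4 libraries and among 8845 genes with at least 10 CPM in a library. PLS3 had 1033, 789, 1721 and 1517 reads in the fixed order. CA2 was the gene of the 8 for which this was computed, because no other with 10 CPM or more had a 2-fold range.

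Indole moved none of the 8 genes by 2-fold where they were measured at 10 CPM or more. In wild type 0 of 4 such genes were at least 2-fold apart, against 2.90% of 8679 genes, 118 (1.36%) higher and 134 (1.54%) lower (248 and 75 with library totals, which moved the median log2 ratio of all genes from -0.04 to 0.14). In the IDO1 line it was 0 of 3, against 0.0821% of 8523 genes (0.0469% higher, 0.0352% lower). Between the lines, 0 of 3 were 2-fold apart in DMF, against 0.447% of 8500 genes (0.282% higher, 0.165% lower), and 1 of 4 in indole, CA2, against 4.51% of 8765 genes, 200 (2.28%) higher and 195 (2.22%) lower (147 and 274 with library totals). CA2 was just past 2-fold there, at a log2 ratio of 1.01, and was not with library totals (0.94) or a pseudocount of 5 (0.89). The median log2 ratio of the 4 genes with indole in wild type was 0.18, against -0.04 over all genes. In the additive fit over both lines, 0 of the 5 genes tested passed for indole, with edgeR adjusted p of 1 for each and none at an unadjusted p under 0.05. Over all genes 0% passed with edgeR, with 448 at an unadjusted p under 0.05, and 0 passed with DESeq2, with 127.

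**Figure D4:**
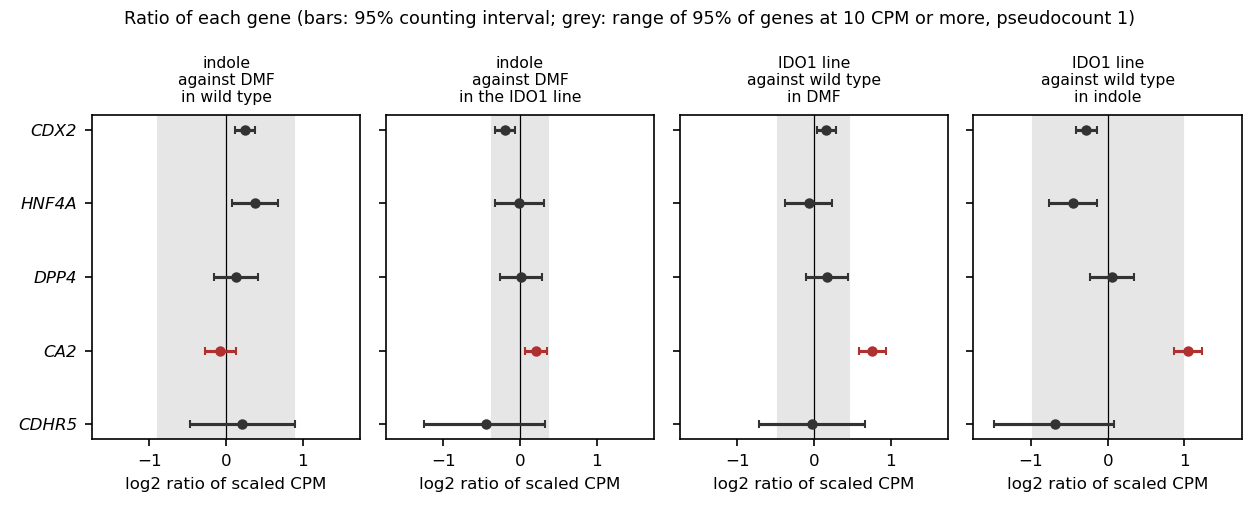
Log2 ratio of scaled CPM (horizontal axis, bars are 95% counting intervals) for the 5 genes with over 3 reads in every library, in the 4 comparisons (panels). Grey spans the range that holds 95% of genes with at least 10 CPM on the scale with a pseudocount of 1. CA2 lies outside it in both comparisons of the lines, with ratios of 1.70 and 2.07, and inside it in both comparisons of indole with DMF. The points carry no pseudocount. CDHR5, under 10 CPM in all 4 libraries, also lies outside for indole against DMF in the IDO1 line, at 0.734 (0.422 to 1.25). Genes at its level are not part of the grey range.

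On the wider lists, about as many intestinal regulators and structural genes of microvilli reached 10 CPM as genes in general, and few hydrolases, absorption genes or colonocyte genes did. Over all 20812 targets 42.5% reached 10 CPM in a library and 19.5% had 0 reads in all 4. Of 21 intestinal transcription factors, 11 reached 10 CPM in a library and 2 had 0 reads in all 4. SOX9, a factor of crypt progenitors, had 215.1 to 279.4 CPM, and EHF, an epithelial ETS factor, 117.1 to 164.6 CPM. Of 20 structural genes of the brush border, 10 reached 10 CPM, among them ezrin (EZR), which ties the membrane to actin, with 2884 to 3234 CPM, and its scaffold SLC9A3R1 with 266.0 to 289.4 CPM. Of 16 brush border hydrolases only DPP4 reached 10 CPM, and 5 had 0 reads, among them the sucrase gene SI. Of 21 genes of absorption and lipid handling 2 reached 10 CPM, the iron reductase CYBRD1 and the folate carrier SLC46A1, and 11 had 0 reads, among them FABP1, FABP2 and APOB. Of 22 colonocyte surface and ion transport genes with a target, 2 reached it, CA2 and the adhesion molecule EPCAM, and 11 had 0 reads. The genes with 0 reads named here were chosen after their values were seen.

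**Figure D5:**
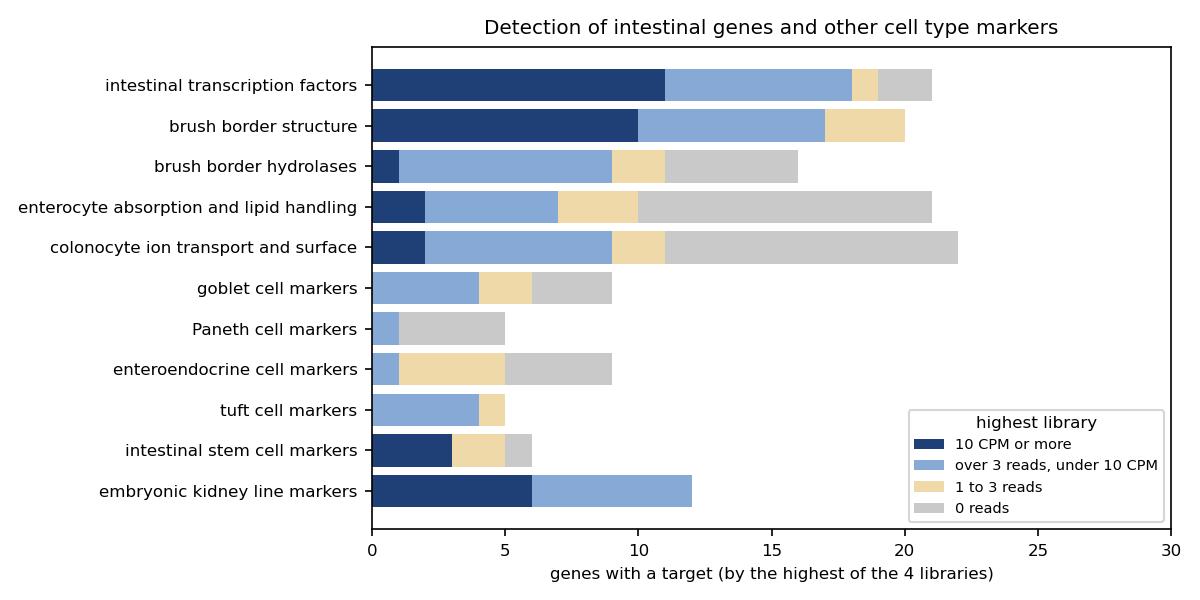
Number of genes with a target on each list (bars, horizontal axis in genes), split by the level in the highest of the 4 libraries. Intestinal transcription factors and structural brush border genes have 11 and 10 genes at 10 CPM or more, the hydrolase list has 1, and the goblet, Paneth, enteroendocrine and tuft cell lists have 0.

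Few of these wider lists' genes differed with line or treatment, and few of all genes did. Of all 13122 genes, 2.45% passed for the line and 0% for indole by edgeR, so no listed gene could pass for indole. In the additive fit, GATA4 rose with the line among 16 transcription factors tested (log2 fold change 5.26, SE 0.746, edgeR adjusted p 2.17e-05). Its fitted size depends on the near-absence of reads in wild type, and the ratio in DMF was 21.1 (6.93 to 105), while in indole it was at least 19.55-fold higher against the floor of 3 reads in the wild type library. None of 13 structural brush border genes, 5 hydrolases or 4 absorption genes passed for the line by edgeR, with 1, 0 and 1 at an unadjusted p under 0.05, and none of these or of the transcription factors passed for indole. DESeq2 also called 0 of these 3 lists for the line, with 0, 0 and 1 at an unadjusted p under 0.05, and called GATA4 among the transcription factors. Over all 13122 genes, 1311 with edgeR and 683 with DESeq2 had an unadjusted p under 0.05 for the line. With the line term alone and wild type with DMF left out, where 14.5% of 13444 genes fell, 4 of 17 transcription factors, 3 of 14 structural genes, 2 of 8 hydrolases and 1 of 4 absorption genes fell. Without wild type with indole, 2 of 16 transcription factors (ELF3 and EHF) fell, against 1.34% of all genes. GATA4 was called with each library left out except the IDO1 line with DMF.

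Between pairs of libraries, KLF4 and MYO1D were the 2-fold differences on those lists, both with wild type with indole as the high library. KLF4, a factor of differentiating surface epithelium, had 702, 1374, 688 and 633 reads in the fixed order. In indole it was 0.466 times as high in the IDO1 line (0.423 to 0.512). It was 2.15 times as high with indole in wild type (1.96 to 2.36) and 1.10 times in the IDO1 line (0.983 to 1.22). MYO1D, a class I myosin, had 466, 801, 446 and 381 reads, and in indole was 0.481 times as high in the IDO1 line (0.425 to 0.544). Its ratios of indole to DMF were 1.89 (1.68 to 2.12) in wild type and 1.02 (0.886 to 1.17) in the IDO1 line. Whether these responses differed between the lines was not tested, as the groups have no replicates.

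Markers of other intestinal cells and of other tissues were mostly at or near 0, apart from part of the stem cell list. Of 9 goblet, 5 Paneth, 9 enteroendocrine and 5 tuft cell markers, 0 reached 10 CPM, and MUC2, the goblet mucin, named after its values were seen, had 6, 23, 7 and 8 reads. Leukocyte, endothelial and gastric lists also had 0 genes at 10 CPM. Of 6 intestinal stem cell markers with a target, 3 reached 10 CPM (RNF43, EPHB2 and AXIN2), against 42.5% of all targets. The other 3 had at most 3 reads in any library. The hepatocyte and fibroblast lists had 1 each, CPS1 and COL1A1, while COL1A2 and DCN had 0 reads. Of 11 genes taken as marks of colon epithelium, 5 reached 10 CPM in a library, against 42.5% of all targets. These 5 were CDX2, EPCAM and the keratins KRT8, KRT18 and KRT19, each at 10 CPM or more in all 4 libraries. On the same list CDX1 and GPA33 had 0 reads, and VIL1 and CDH17 at most 2. Of the 8 genes, CDX2, HNF4A, DPP4, CA2 and, at a low level, CDHR5 had more than 3 reads in all 4 libraries. Detection alone does not show an enterocyte state, which was not tested.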

How the data were processed

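RNA of 4 HCT116 samples was sequenced on amplicon libraries that read 1 short target per gene. The authors deposited raw counts of reads per target, with no normalization, per the file headers. Reads were placed on hg19 according to the submitters' processing notes. The aligner and counter are not given in the sources used here. All 20812 rows were used, of which 10 spike-in rows had 0 reads.

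Counts were scaled by TMM (edgeR 4.0.16, R 4.3.3). With 1 library per group, ratios carry 95% intervals (exact, Clopper-Pearson) on how reads divide between the pair, and levels carry exact Poisson intervals. A gene was counted as apart at 2-fold on log2(CPM + 1), with at least 10 CPM in 1 of the 2 libraries. Line and treatment were tested additively over 4 libraries by the quasi-likelihood test of edgeR on genes kept by filterByExpr, adjusted over all genes (Benjamini-Hochberg, 0.05). That fit has 1 residual degree of freedom, so its error holds the interaction and library noise. edgeR also shares the estimate of spread between genes, so a p-value does not rest on the libraries of that gene alone. SE is the log2 fold change over the square root of F. Separate cultures are not stated, and p-values therefore describe the spread among these samples, in part pooled over genes, which may be technical. The model script was first tested on simulated counts.

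Genes named beyond the 8 were the 2 most abundant of each list, those past a test, those 2-fold apart, and the 3 nearest in pattern to a gene with a 2-fold range. Any other gene was named after its values were seen. Genes and lists were chosen with earlier results of these data known. Alternatives were DESeq2 1.42.0, other scalings, filters and pseudocounts, the line term alone, and leaving out each library.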

Additional observations from a re-analysis of the deposited data

Results flagged for a closer look

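CDX2 moved in opposite directions with indole in the 2 lines. The ratio of indole to DMF was 1.19 in wild type (1.09 to 1.30) and 0.875 in the IDO1 line (0.798 to 0.959), and both intervals exclude 1. The difference was not tested, there being 1 library per group, and the intervals cover counting error only. The same kind of opposition was seen for 19% of 8835 genes with at least 10 CPM, 739 of them higher in wild type and lower in the IDO1 line and 941 the reverse. The wild type value uses the library that stood apart.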

How the results depend on the processing

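With library totals, a pseudocount of 5 or a minimum of 50 CPM, the count of genes at least 2-fold apart between the lines in indole was 0, 0 and 0 in place of 1. The counts in the other 3 pairs were 0 under every setting tried. The count past the line threshold was 0 with DESeq2 and 0 with the line term only, where CA2 had log2 fold changes of 0.90 and 0.90. Leaving out each library gave counts of 0 to 2 and CA2 values of 0.80 to 1.01. The share of all genes called for the line was 2.45%, but 0.874% with a minimum of 10 CPM in 2 libraries, 0.671% with DESeq2, 1.59% with the line term only and 0.599% to 32.1% with a library left out. Library totals moved the CDX2 log2 ratio with indole in wild type from 0.25 to 0.42 and turned the sign of 4 small log2 ratios, of CA2, CDHR5, HNF4A and DPP4. CDX2's line effect of -0.07 became 0.07 without wild type with indole and 0.03 without the IDO1 line with indole. The causes were not tested. No pairing of replicates was possible because each group has 1 library. Depth limits CDX1, VIL1, ANPEP and CDHR5, with at most 39 reads in a library.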

Other observations

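Of 39 genes of all lists at 10 CPM or more, 9 (23.1%) had counting intervals on opposite sides of 1 for indole in the 2 lines, against 19% of all such genes. They were CDX2, ELF3, ESPN, SLC46A1, EPCAM, EPHB2, CPS1, VIM and KRT19. The share is near that of all genes, and no difference between the lines was tested.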
